A study of Saccharomyces cerevisiae with 3 samples.

Results

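The 18S rRNA is the RNA of the small ribosomal subunit, and its 5′ and central domains form the body and the platform of that subunit. They were taken here as nucleotides 1 to 1144 of RDN18-2, approximately these domains, and are called the 18S body below. They are 1144 of the 1800 nucleotides of the 18S rRNA and of the 6983 nucleotides listed for all rDNA segments in the files. Nucleotides 1145 to 1800, which hold the head of the subunit and the 3′ minor domain, served for comparison. The libraries came from the yeast strain BY4741. In wild type no protein carried the tag (1 library). In Get4-HTP the Get4 protein, expressed from its own locus, carried a C-terminal His-Tev-ProtA tag (2 libraries, Get4-HTP 1 and Get4-HTP 2). All cells had been grown exponentially in low uracil medium with 4-thiouracil and irradiated at 365 nm. The methods give more PCR cycles for wild type than for Get4-HTP, and the file headers of wild type and Get4-HTP 1, but not of Get4-HTP 2, carry the same run code. Strain and PCR cycles cannot be told apart in this design. Because wild type has 1 library, no test between strains was possible, and the wild type values have no error of their own.

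Get4 forms a complex with Get5 in the pathway that delivers tail-anchored proteins to the membrane of the endoplasmic reticulum. The complex binds ribosomes, and the polypeptide tunnel exit belongs to the large subunit, not to the subunit that holds the 18S rRNA. The 5′ domain of 18S rRNA makes up most of the body of the small subunit, and the central domain makes up the platform, which faces the large subunit and the path of the mRNA. Both domains carry insertions that bacterial rRNA lacks, the expansion segments. As the most abundant RNA of the cell, rRNA is also a common background in crosslinking experiments, so the signal of the strain without a tag was set beside that of Get4-HTP throughout.

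CRAC identifies RNA fragments that remained crosslinked to a tagged protein through purification. A crosslinked 4-thiouridine is often read as C, and the T-C substitution then gives the position of the crosslink. For each nucleotide the deposited counts gave the reads covering it (hits) and the reads substituted there. The authors discarded reads that did not carry exactly 1 T-C mutation, so that the share of substituted reads at one T is relative to reads crosslinked at some T, and a high share at one T lowers the shares of its neighbors. The 18S rRNA had 3168 substitutions in wild type against 7500 (Get4-HTP 1) and 6090 (Get4-HTP 2). Of these, 2586, 6300 and 5240 were in the 18S body, with 78769, 194777 and 158256 hits. A read covered 30.5, 30.9 and 30.2 nucleotides of the 18S body on average, so that neighboring nucleotides share most of their reads. All substitutions in 18S rRNA were at T, and 0 nucleotides of the 18S body were without hits in any library. Counting intervals below are Wilson 95% intervals, which cover counting error alone and take each UMI-collapsed read as independent.

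The stretches on which the results turn are printed in DNA letters as the files give them, 5′ to 3′ on the strand of the rRNA. They are shown so that the crosslinked uridines can be seen in their surroundings. Capitals mark each T that held at least 10% of the substitutions of its stretch in 1 library or more.
The highest peak of wild type, 456 to 509: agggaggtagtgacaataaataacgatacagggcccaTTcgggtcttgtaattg
The highest peak of Get4-HTP 2, 299 to 356: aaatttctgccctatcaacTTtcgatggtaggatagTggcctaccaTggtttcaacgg
The peak between nucleotides 253 and 293: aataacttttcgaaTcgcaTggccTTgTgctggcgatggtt
The first run of Get4-HTP 2, 67 to 97: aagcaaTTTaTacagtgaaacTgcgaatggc
The 5′ end, 1 to 25: tatctggtTgaTcctgccagtagtc
The stretch that holds the 530 loop, 544 to 585: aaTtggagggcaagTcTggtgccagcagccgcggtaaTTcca
The bin that was higher in both Get4-HTP libraries, 701 to 750: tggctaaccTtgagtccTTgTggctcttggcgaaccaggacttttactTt

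RefSeq lists RDN18-2 (YNCL0025C) on the assembly R64 with the same length of 1800 nucleotides, and a second copy, RDN18-1, of that length. The genome build of the files is not given in the sources used here, so chromosome coordinates are not printed. How reads from near-identical rDNA copies were assigned is not given either.

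The 18S body was covered in every library, less densely per mapped read in Get4-HTP than in wild type. It received 731653 hits per 1000000 mapped reads in wild type against 316715 (Get4-HTP 1) and 169449 (Get4-HTP 2). Relative to wild type this was 0.433 and 0.232, with a mean of 0.332 ± 0.142 (SD, n = 2). Both Get4-HTP libraries were lower than wild type, and they differed from each other by a large part of their value. Mapped reads include tRNA reads, and this ratio depended on the scale. As a share of RDN37 hits, the 18S body held 19.5% in wild type against 21.3% (Get4-HTP 1) and 15.8% (Get4-HTP 2), so that wild type lay between the Get4-HTP libraries. The 25S run around the 25S maximum (1392 to 1451) was located in the mean profile of the Get4-HTP libraries. With this run left out of the RDN37 sum, the shares were 20.2%, 26.5% and 31.5%, and both Get4-HTP libraries were higher. The rise of their shares is therefore partly built in. The direction of the difference from wild type was thus set by the denominator.

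Within the 18S rRNA the 18S body held more than its 63.6% of the length. Its share of 18S hits was 81.0% in wild type against 83.3% (Get4-HTP 1) and 85.5% (Get4-HTP 2). The mean over Get4-HTP, 84.4% ± 1.56 (SD, n = 2), was 3.32 percentage points above wild type, which exceeded the SD of Get4-HTP. Counted as substitutions, the shares were 81.6% (interval 80.2% to 82.9%), 84.0% (83.2% to 84.8%) and 86.0% (85.1% to 86.9%). The intervals did not overlap. The mean number of hits per nucleotide in the 18S body was 2.45 times that of the head in wild type against 2.85 times (Get4-HTP 1) and 3.37 times (Get4-HTP 2). T made up 29.5% of the 18S body and 26.2% of the head.

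The signal was concentrated in nucleotides 1 to 572, approximately the 5′ domain. They held 58.2% of 18S hits in wild type against 59.0% (Get4-HTP 1) and 63.7% (Get4-HTP 2). Nucleotides 573 to 1144, of the same length, held 22.9%, 24.3% and 21.8%. Here the mean over Get4-HTP was 23.04% ± 1.79 (SD, n = 2), and its distance to wild type was below this SD. The numbers of T, at which a retained read can be substituted, are 164 and 174.

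**Figure D1:**
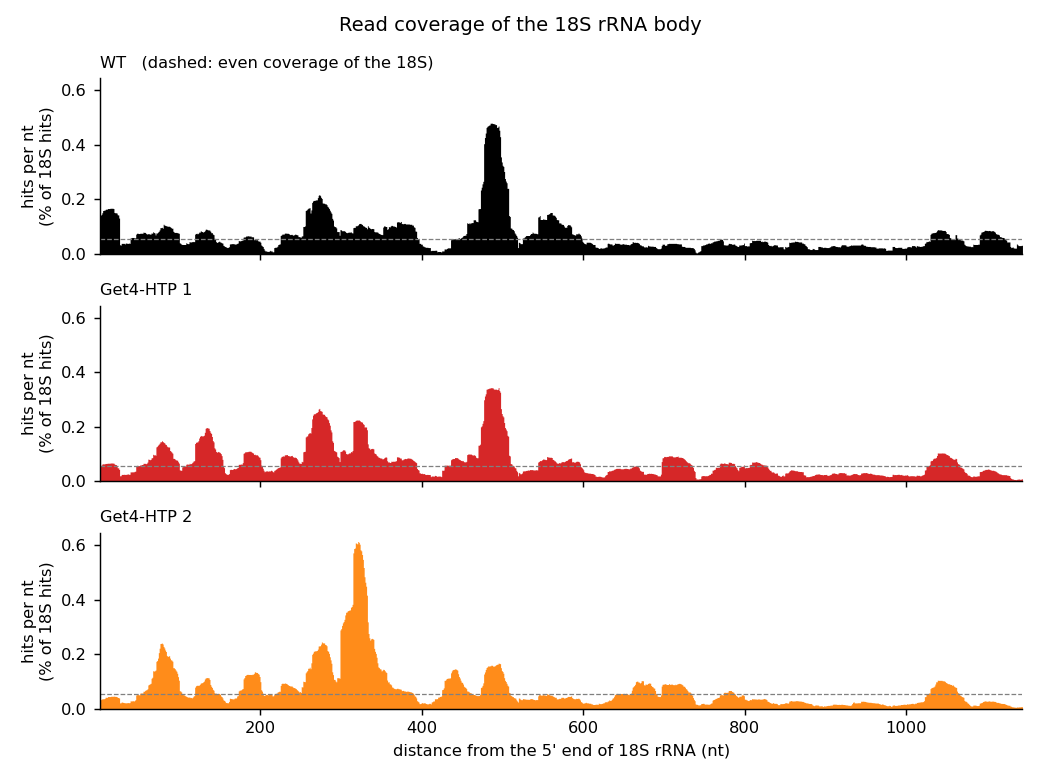
Hits at each nucleotide of the 18S body as a percentage of all 18S hits, plotted against the distance from the 5′ end of 18S rRNA in nucleotides, for wild type, Get4-HTP 1 and Get4-HTP 2 (1 library per panel). The dashed line is even coverage (0.0556% per nucleotide); the highest nucleotide is 485 in wild type against 495 (Get4-HTP 1) and 321 (Get4-HTP 2).

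Runs of nucleotides above 20% of the maximum of the 18S body numbered 10 in wild type against 13 (Get4-HTP 1) and 6 (Get4-HTP 2), and they covered 233, 466 and 176 nucleotides. They held 39.6%, 58.1% and 40.2% of 18S hits. The number of runs depends on the height of the maximum in each library. The run from 253 to 293 in wild type was matched by one from 256 to 290 in Get4-HTP 2, and in Get4-HTP 1 it lay in a longer run from 251 to 392. This stretch was similar in all libraries, with 6.89% of 18S hits in wild type against 8.34% (Get4-HTP 1) and 7.50% (Get4-HTP 2). In contrast, the highest peak was not the same in all libraries.

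The highest peak of wild type extended from 456 to 509. Its highest nucleotide, 485, had 466 hits in wild type, which is 4328 per 1000000 mapped reads and the maximum of the whole 18S rRNA in that library. The highest nucleotide of the stretch was 495 in both Get4-HTP libraries, with 805 hits (Get4-HTP 1) and 310 hits (Get4-HTP 2), or 1309 and 332 per 1000000 mapped reads. The stretch held 16.1% of 18S hits in wild type against 11.9% (Get4-HTP 1) and 5.80% (Get4-HTP 2). Its share relative to wild type was therefore 0.742 and 0.361. The substitutions of the stretch numbered 496, 863 and 333. They made up 15.7% (interval 14.4% to 17.0%), 11.5% (10.8% to 12.2%) and 5.47% (4.92% to 6.07%) of the 18S substitutions. The libraries differed by more than counting error, and Get4-HTP 1 lay between wild type and Get4-HTP 2. The stretch was chosen as the maximum of wild type, so that its high value there is partly built in. Its values in the Get4-HTP libraries did not enter this choice.

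A pair of neighboring uridines carried most of the crosslinks of this stretch in each library. T493C accounted for 208 substitutions in wild type against 376 (Get4-HTP 1) and 129 (Get4-HTP 2), and T494C for 187, 302 and 96 (positions are counted from nucleotide 1 of 18S rRNA). Of the reads over nucleotide 493, 46.1% (interval 41.6% to 50.7%), 47.8% (44.3% to 51.3%) and 42.7% (37.3% to 48.4%) were substituted. These intervals overlapped, whereas those of the share of the stretch in the 18S substitutions did not. Some edges of the fragments were also shared. From nucleotide 476 to 477 the hits rose from 259 to 393 in wild type, and likewise from 521 to 700 (Get4-HTP 1) and from 176 to 236 (Get4-HTP 2). The largest loss of the stretch was in each library from 507 to 508. The other 11 T of the stretch carried substitutions in every library, at lower shares than nucleotides 493 and 494. T463C had 13.4%, 10.2% and 13.1% of reads substituted, and T501C had 1.28%, 1.81% and 0.830%. T508C had 4.38%, 7.59% and 15.3%.

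The highest peak of Get4-HTP 2 extended from 299 to 356. Its highest nucleotide, 321, had 1135 hits in Get4-HTP 2, or 0.613% of 18S hits. In Get4-HTP 1 the stretch reached 527 hits at nucleotide 319 (0.225% of 18S hits), and in wild type 109 hits at 323 (0.112%). The stretch held 5.30% of 18S hits in wild type against 8.04% (Get4-HTP 1) and 20.2% (Get4-HTP 2). Relative to wild type these shares were 1.52 (Get4-HTP 1) and 3.81 (Get4-HTP 2). The distance between the Get4-HTP libraries was larger than that between Get4-HTP 1 and wild type. By substitutions the stretch held 5.18% (interval 4.46% to 6.0%), 8.80% (8.18% to 9.46%) and 21.4% (20.4% to 22.5%) of the 18S substitutions, and these intervals did not overlap. The stretch was chosen as the maximum of Get4-HTP 2, so that its high value there is partly built in; its values in Get4-HTP 1 and wild type did not enter this choice.

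In both Get4-HTP libraries neighboring uridines again had the most substitutions. T318C and T319C had 18 and 35 substitutions in wild type against 116 and 234 (Get4-HTP 1) and 434 and 451 (Get4-HTP 2). In wild type T335C, with 27 substitutions, came before T318C; it had 55 and 40 in Get4-HTP. At nucleotide 319 the share of substituted reads was 35% of 100 reads, 44.4% of 527 and 40.2% of 1123, with overlapping intervals. At nucleotide 318 it was 17.8% (interval 11.6% to 26.4%) in wild type, 22.2% (18.8% to 25.9%) in Get4-HTP 1 and 38.5% (35.7% to 41.4%) in Get4-HTP 2. Here Get4-HTP 2 was higher than both other libraries, which overlapped. The hits rose from nucleotide 314 to 315 from 265 to 513 (Get4-HTP 1) and from 709 to 1058 (Get4-HTP 2), against 75 to 94 in wild type. A further rise at nucleotide 299, from 207 to 535, was among the 5 largest in Get4-HTP 2 and in neither of the other libraries.

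The hits in the peak from 456 to 509 were 3.04 times those in the peak from 299 to 356 in wild type against 1.48 times (Get4-HTP 1) and 0.288 times (Get4-HTP 2). A large peak lowers the shares of all other stretches of the same library. With the other peak left out of the sum, the stretch from 456 to 509 still held 17.0%, 13.0% and 7.27% of the remaining 18S hits, and the stretch from 299 to 356 held 6.31%, 9.13% and 21.4%. Per 1000000 mapped reads, 46 of the 1144 nucleotides of the 18S body were higher in Get4-HTP 2 than in wild type, and 20 of these were nucleotides 312 to 331. At nucleotide 317 the ratio was 1.32, from 1091 hits against 95. In Get4-HTP 1, 62 nucleotides were higher than wild type, and 0 of them lay in 312 to 331. In both libraries 22 nucleotides were higher. They lay within 205 to 216 and 420 to 435, where wild type had only 8 to 11 hits at the nucleotides of highest ratio. The same counts over the other segments are not given here.

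**Figure D2:**
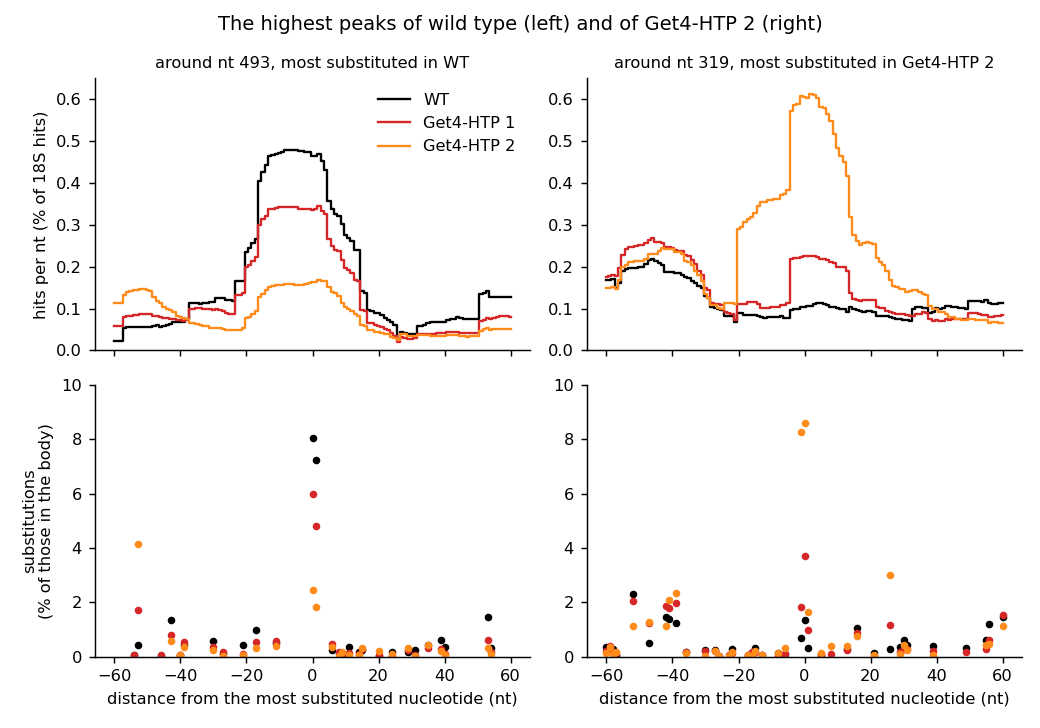
Hits per nucleotide (upper panels, percentage of 18S hits) and T-C substitutions (lower panels, percentage of those in the 18S body; positions without substitutions are not drawn) around the most substituted nucleotide of wild type (493, left) and of Get4-HTP 2 (319, right), against the distance from it in nucleotides. Lines and points are wild type (black), Get4-HTP 1 (red) and Get4-HTP 2 (orange); the left peak is highest in wild type and the right peak in Get4-HTP 2, with Get4-HTP 1 between them in both.

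The 18S body was cut into 23 bins, each 50 nucleotides long, starting at its 5′ end (the last has 44), and the share of 18S hits was compared with wild type after adding a pseudocount of 1% of the mean bin. In both Get4-HTP libraries 1 bin (4.35% of the 23) reached at least 2 times its wild type share, against 2.7% of all 37 bins of 18S rRNA. In 2 bins (8.70%) the share was at most 0.5 times wild type in both, against 5.41% of the 37 bins. Of the head, 0 of 14 bins passed either limit, so that the bins called among the 37 are these same bins. With Get4-HTP 2 alone, 4 bins were at least 2 times and 5 at most 0.5 times wild type. With Get4-HTP 1 alone the counts were 1 and 2. In the head the ratios of single bins ranged from 0.361 to 1.70 (Get4-HTP 1) and from 0.400 to 1.65 (Get4-HTP 2). Each library alone thus passed the lower limit there as well, but not the upper one. Both Get4-HTP libraries were higher than wild type in 11 bins of the 18S body and lower in 10, and they had opposite directions in 2. Of the 14 head bins, both were higher in 2 and lower in 9, with opposite directions in 3. Per 1000000 mapped reads both were lower than wild type in all 23 bins of the 18S body and in all 14 of the head. On this scale 0 bins of the 18S body were at least 2 times wild type, against 0.69% of the 145 bins of all segments. In 13 bins of the 18S body the value was at most 0.5 times wild type, against 80% of these 145 bins.

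The bin that was higher in both libraries was 701 to 750, in the central domain. It held 1.42% of 18S hits in wild type against 3.24% (Get4-HTP 1) and 3.19% (Get4-HTP 2). Ratios to wild type were 2.26 and 2.23, and the Get4-HTP mean was 3.22% ± 0.0358 (SD, n = 2). The substitutions numbered 40, 218 and 181, or 1.26% (interval 0.929% to 1.71%), 2.91% (2.55% to 3.31%) and 2.97% (2.57% to 3.43%) of the 18S substitutions. In this bin the Get4-HTP libraries were nearly equal and both lay above wild type. The bin was called by its ratios to wild type, so that the position of both libraries above wild type is built in. The substitutions come from the same reads. The wild type value rests on 40 substituted reads, and the lowest number of hits in the 18S body of wild type, 4 at nucleotide 740, was within the bin. A net gain of 108 hits at nucleotide 697 (Get4-HTP 1) and of 60 (Get4-HTP 2) marked a fragment start just before the bin. Even coverage would give a bin 2.78%, so that wild type was below even coverage here and Get4-HTP slightly above it.

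Of the 5 bins with the highest mean ratio, 4 did not reach 2 times wild type in both libraries. Bin 301 to 350, which holds the peak of Get4-HTP 2, had ratios of 1.60 and 4.11. Bin 401 to 450 had 1.60 and 2.51, bin 651 to 700 had 1.29 and 2.39, and bin 151 to 200 had 1.57 and 1.67. In the first 3 of these Get4-HTP 2 was the higher library by a wide margin. Bin 151 to 200 held 2.34% of 18S hits in wild type against 3.69% (Get4-HTP 1) and 3.94% (Get4-HTP 2), where the Get4-HTP libraries were again close.

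The lowest bins were at the ends of the 18S body. Bin 1101 to 1144 held 2.37% of 18S hits in wild type against 1.04% (Get4-HTP 1) and 0.736% (Get4-HTP 2), with ratios of 0.445 and 0.319. Bin 1 to 50 held 5.17%, 2.41% and 1.80%, with ratios of 0.468 and 0.351. Bins 551 to 600 (0.699 and 0.391), 451 to 500 (0.755 and 0.379) and 501 to 550 (0.653 and 0.451) followed. In these 5 bins Get4-HTP 2 was lower than Get4-HTP 1, and both were lower than wild type. The 5 bins were chosen by their mean ratio to wild type, so that low values in Get4-HTP are partly built in. Over all 23 bins, Get4-HTP 1 lay between wild type and Get4-HTP 2 in 16. Of the 14 bins of the head, only those starting at nucleotides 1195, 1495, 1545, 1595 and 1695 had this order.

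**Figure D3:**
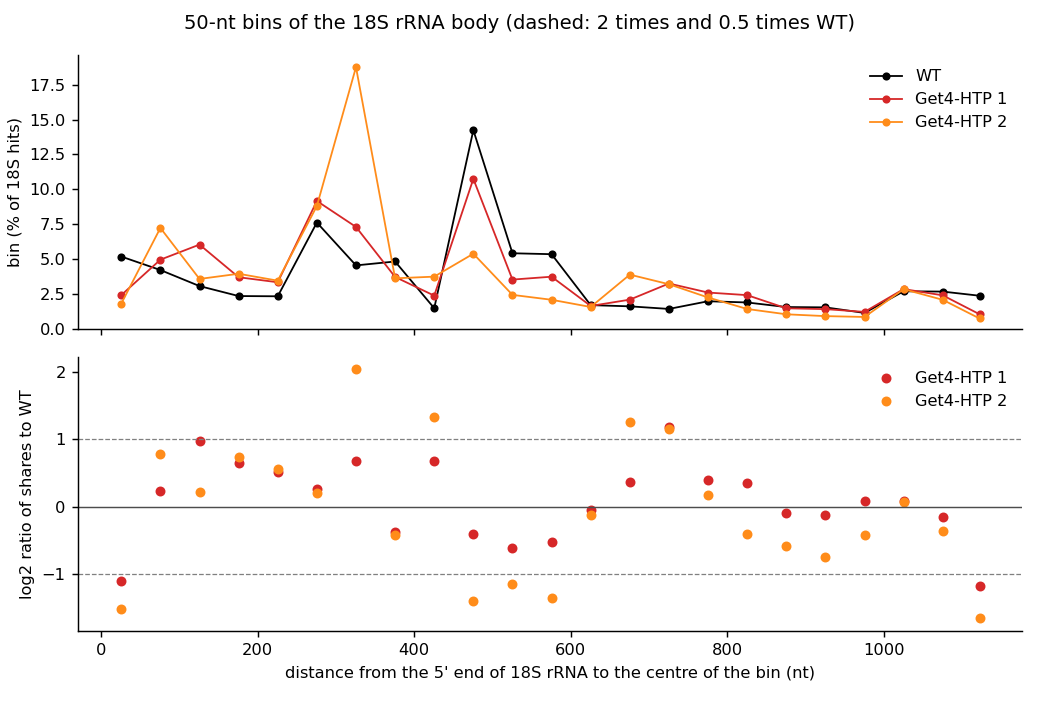
Share of 18S hits in each bin of 50 nucleotides of the 18S body (upper panel, percent) and the log2 ratio of that share to wild type (lower panel), against the distance of the bin centre from the 5′ end of 18S rRNA in nucleotides. Points are single libraries and dashed lines mark 2 times and 0.5 times wild type; the bin 701 to 750 lies above the upper line and the first and last bins below the lower line in both Get4-HTP libraries.

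The first bin holds the 5′ end of the mature rRNA. Nucleotides 1 to 25 formed a run in wild type, so that a higher share of this run there is partly built in. The highest nucleotide of this stretch had 163 hits in wild type against 158 (Get4-HTP 1) and 86 (Get4-HTP 2). As the 18S sums of the Get4-HTP libraries were larger, the run held 3.88%, 1.54% and 1.04% of 18S hits. From nucleotide 25 to 26 the hits dropped from 128 to 33 in wild type, from 103 to 48 in Get4-HTP 1, and in Get4-HTP 2 from 73 to 40. These losses were 74.2%, 53.4% and 45.2% of the hits at nucleotide 25, smaller in Get4-HTP than in wild type, and the largest around this stretch in each library. T12C had 87, 92 and 46 substitutions, which were 53.7% (interval 46.0% to 61.2%), 59.0% (51.1% to 66.4%) and 55.4% (44.7% to 65.6%) of the reads. The intervals at T12C overlapped, while the share of the run in 18S hits and the drop at its end were smaller in Get4-HTP.

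Conserved loops served as landmarks in the functional centers. The motif GCCGCGG, which ends in the 530 loop of h18 next to the decoding site, occurs once in 18S rRNA on the rRNA strand, at 571 to 577. The motif AGATACC of the 790 loop at the tip of h24, on the platform, occurs once at 1001 to 1007. Each is present in 2.51% of all windows of 50 nucleotides of 18S rRNA. A match shows only where these letters are. The mean share of 18S hits per nucleotide over the first motif was 0.108% in wild type against 0.0713% (Get4-HTP 1) and 0.0404% (Get4-HTP 2). For the second motif it was 0.0272%, 0.0214% and 0.0185%, below the 0.0556% of even coverage in each library. The 530 loop was in a wild type run from 544 to 585, which held 5.25% of 18S hits in wild type against 3.28% (Get4-HTP 1) and 1.92% (Get4-HTP 2). Within it, T558C was substituted in 42.4% (interval 34.6% to 50.5%) of 144 reads, 29.0% (23.2% to 35.5%) of 207 and 23.2% (15.8% to 32.6%) of 95. The 2 Get4-HTP intervals overlapped each other, and the interval of Get4-HTP 2 lay below that of wild type. The run from 544 to 585 was found in wild type, so that its higher share of hits there is partly built in.

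The crosslinks were spread over many of the 338 T of the 18S body. At least 10 substitutions were found at 63 T in wild type against 141 (Get4-HTP 1) and 99 (Get4-HTP 2), and no substitution at 43, 25 and 42. The 10 most substituted T held 31.6%, 28.0% and 39.9% of the substitutions of the 18S body. Of the 20 most substituted T in each library, Get4-HTP 1 and Get4-HTP 2 shared 16, wild type and Get4-HTP 1 shared 12, and wild type and Get4-HTP 2 shared 10. In all 3 lists there were 10. Pooled over all T of the 18S body, 11.7%, 10.9% and 10.9% of hits at T were substituted.

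The share of substituted reads was compared at the 32 T with at least 100 hits in every library. The intervals of both Get4-HTP libraries lay above that of wild type at 0 T and below it at 0 T, against 1.79% and 4.17% of the 168 T of RDN37 that met the same minimum. Get4-HTP 1 alone differed from wild type at 0 of the 32. Get4-HTP 2 alone was higher at 4 (T272C, T318C, T499C and T508C) and lower at 1 (T267C). The median share over these 32 T was 5.70% in wild type against 6.26% (Get4-HTP 1) and 7.07% (Get4-HTP 2). The highest mean shares were at nucleotides 493, 379, 319, 494 and 318. At T379C the shares were 34.9%, 48.7% and 48.8%, with overlapping intervals. The lowest were at nucleotides 502, 507, 501, 324 and 327. At T327C there were 0 substitutions in 101 wild type reads (upper bound of the interval 3.66%), 6 in 495 and 20 in 1014.

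The minimum of 100 hits left out T that were well covered only in Get4-HTP. It also left out T with fewer hits in Get4-HTP 2 alone, such as T12C (162, 156 and 83 hits) and T558C (144, 207 and 95). With a minimum of 50 hits in every library, 149 T could be compared. The intervals of both Get4-HTP libraries lay above wild type at 3 (2.01%) and below it at 6 (4.03%). These percentages were close to the 1.93% and 4.28% of the 467 T of RDN37 at that minimum, so the 18S body did not stand out by their number. Among the 3 T with higher shares, the largest differences were at T440C and T345C, which were among the 5 most substituted T of Get4-HTP 2. Nucleotide 440 was substituted in 11 of 54 reads in wild type against 109 of 196 (Get4-HTP 1) and 218 of 268 (Get4-HTP 2). This is 20.4% (interval 11.8% to 32.9%), 55.6% (48.6% to 62.4%) and 81.3% (76.2% to 85.6%), and the 3 intervals did not overlap. T440C and T345C were picked because their intervals lay apart from wild type, so that the gap to wild type is built in. The value in Get4-HTP 2 was the highest share of that library among T of the 18S body with at least 100 hits. Per 1000000 mapped reads T440C had 102 substitutions in wild type against 177 (Get4-HTP 1) and 233 (Get4-HTP 2). This T was thus higher in both Get4-HTP libraries on that scale as well, although its bin was not. These are the same substituted reads, with 11 in wild type. The surrounding run of Get4-HTP 2 extended from 436 to 445, and the nearest T, nucleotide 439, had 2, 5 and 0 substitutions.

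Nucleotide 345 lies in the peak from 299 to 356. It was substituted in 7 of 78 reads in wild type (8.97%, interval 4.42% to 17.4%), 74 of 217 in Get4-HTP 1 (34.1%, 28.1% to 40.6%) and 158 of 312 in Get4-HTP 2 (50.6%, 45.1% to 56.1%). T345C had 65.0, 120 and 169 substitutions per 1000000 mapped reads, again the lowest in wild type and counted from the same substituted reads. At T1103C, in the last bin, the shares were 2.38% of 84 reads, 14.6% of 103 and 22.2% of 54, and the Get4-HTP intervals overlapped each other. The T with lower shares in both Get4-HTP libraries were T60C, T88C, T128C, T185C, T349C and T450C. At T450C the share was 57.4% (interval 44.9% to 69.0%) in wild type, 28.2% (22.1% to 35.3%) in Get4-HTP 1 and 17.3% (12.5% to 23.5%) in Get4-HTP 2. T349C and T450C are near T345C and T440C, and a read substituted at one of a pair cannot count as substituted at the other. Whether this lowered the shares at T349C and T450C was not tested. At T60C the shares were 28.2%, 7.23% and 5.15%, and at T185C they were 21.5%, 5.04% and 6.01%.

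In the first run of Get4-HTP 2, from 67 to 97, T77C was substituted in 38.3% (interval 29.1% to 48.4%) of 94 wild type reads, 34.1% (29.3% to 39.3%) of 340 reads in Get4-HTP 1 and 60.6% (56.0% to 65.0%) of 444 reads in Get4-HTP 2. Only the interval of Get4-HTP 2 was apart from the others. T133C, among the 5 most substituted T of Get4-HTP 1, had overlapping intervals, with 20.2% of 89 reads, 28.2% of 461 and 27.0% of 211. Some high shares were higher in wild type. T593C, which was picked after its values had been seen, was substituted in 59 of 72 wild type reads (81.9%, interval 71.5% to 89.1%), 115 of 173 in Get4-HTP 1 (66.5%, 59.1% to 73.1%) and 48 of 71 in Get4-HTP 2 (67.6%, 56.1% to 77.3%), with overlapping intervals.

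**Figure D4:**
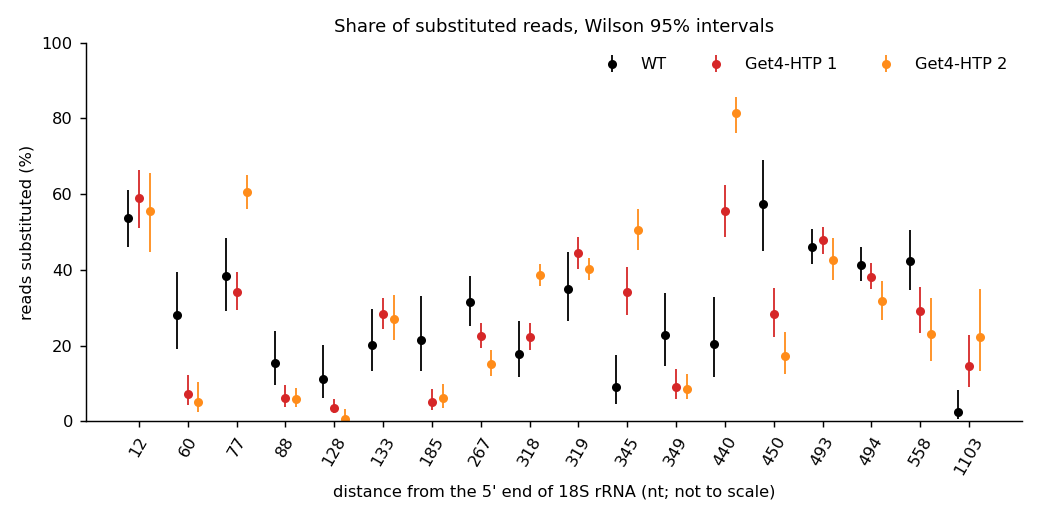
Percentage of reads substituted at single T positions of the 18S body, ordered by distance from the 5′ end of 18S rRNA in nucleotides (not to scale), with Wilson 95% intervals for wild type (black), Get4-HTP 1 (red) and Get4-HTP 2 (orange). Shown are the T with most substitutions in any library and the 9 T at which both Get4-HTP intervals lay apart from wild type at a minimum of 50 hits; nucleotides 345 and 440 are lowest in wild type, and 450 is highest in wild type.

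T493 and T319, the most substituted T of wild type and Get4-HTP 1 and of Get4-HTP 2, are each the first T of a TTCG, read on the rRNA strand only. The 18S body has 6 such sites, and 15.1% of the windows of 50 nucleotides of 18S rRNA hold one. The 12 T of these sites are 3.55% of the T of the 18S body. They carried 20.3% of its substitutions in wild type against 18.2% (Get4-HTP 1) and 17.3% (Get4-HTP 2). Their pooled share of substituted reads was 28.0%, 25.1% and 20.7%, against 10.2%, 9.66% and 9.91% at the other T. The sites differed widely. At the first T of the site at 261 the shares were 4.24%, 2.39% and 2.13%, at 374 they were 13.8%, 9.0% and 16.5%, and at 666 they were 28.6%, 30.1% and 23.5%. The motif was picked after these peaks had been seen. Without the sites at 319 and 493, the 8 T of the other 4 sites had pooled shares of 11.3%, 8.93% and 9.35%, close to those of the other T, so that the excess lay at the sites that had prompted the motif. Other T with many substitutions, such as T318, T77, T440 and T345 in Get4-HTP 2 and T12, T558 and T267 in wild type, are in no TTCG.

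The base before the T went with a difference in each library. Pooled over the 96 T that follow an A, 15.1%, 12.7% and 11.8% of reads were substituted, and over the 67 T that follow a G, 7.56%, 7.79% and 7.36%. For a C after the T the values were 14.3%, 11.4% and 6.87% and were lowest in Get4-HTP 2. Single T of the highest peak of wild type weighed on these values. Of the 668, 1290 and 662 substitutions before a C, T494C gave 187, 302 and 96. Of the 1020, 2185 and 1637 after an A, T493C gave 208, 376 and 129. The pooled shares without these T were not computed. The share of T in a bin was only weakly related to its hits. Across the 23 bins, the share of T and the hits per nucleotide had Pearson's r = -0.24 in wild type against 0.06 (Get4-HTP 1) and 0.15 (Get4-HTP 2), given as a description over bins that share reads.

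Across the 23 bins of the 18S body, the log2 shares of the Get4-HTP libraries correlated with each other at r = 0.86 (Pearson), those of wild type and Get4-HTP 1 r = 0.78, and those of wild type and Get4-HTP 2 r = 0.53. Across the 14 bins of the head the values were 0.93, 0.92 and 0.92. The last of these bins has only 6 nucleotides. Over the 13 full bins the values were 0.88, 0.85 and 0.86. The ratios of single head bins to wild type ranged from 0.361 to 1.70 (Get4-HTP 1) and from 0.400 to 1.65 (Get4-HTP 2). These values are descriptions, since bins are not replicates and neighboring bins share reads. With linear shares, which weight the 2 highest peaks, r within the 18S body was 0.83 for wild type and Get4-HTP 1 and 0.66 for the Get4-HTP libraries, so that the order of these pairs changed.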

How the data were processed

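The libraries were 1 of wild type and 2 of Get4-HTP, which the methods call biological replicates. Per the methods, the authors removed adapters with Flexbar, merged PCR duplicates through their UMIs, and aligned with Bowtie2 (version 2.3.4.2 per the submitters' processing notes; the file headers name a folder of Bowtie 1 output). Reads were retained if they carried 1 T-C mutation and no other. The deposited counts, from pyPileup and not normalized, were hits, substitutions and deletions at each nucleotide (0 deletions were listed). Unmutated reads are therefore missing, and T that are often substituted retain more reads. Mapped reads in the headers totalled 107659 (wild type), 614992 (Get4-HTP 1) and 933943 (Get4-HTP 2). A count of 3 reads was 0.0947%, 0.04% and 0.0493% of the 18S substitutions.

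Rows of RDN18-2 were sorted by position, and hits and substitutions of each library were scaled per 1000000 mapped reads and to the RDN18-2 sum. RDN37 was joined from its segments, with repeated nucleotides counted once (6862 nucleotides). Named were the highest nucleotide and the runs above 20% of the maximum in each library, the 5 highest and lowest bins, the 5 most substituted T of each library, the 5 highest and lowest shares among T with at least 100 hits in all libraries, T whose intervals lay apart from wild type, and the landmarks. The members and lists were chosen with earlier results of these data known. The procedure was tested on simulated data. Python 3.11.15, numpy 2.4.6, scipy 1.17.1 and matplotlib 3.10.9 were used.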

Additional observations from a re-analysis of the deposited data

How the results depend on the processing

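No paired analysis was possible because wild type has 1 library and the strains share fewer than 2 replicate numbers. The 12 results were recomputed under 63 alternatives, of which 41 gave a similar value. The excess of the 18S body in the share of 18S hits kept its direction, from 2.22 percentage points (without Get4-HTP 2) to 4.42 (without Get4-HTP 1). The ratio of body hits to wild type per 1000000 mapped reads, 0.332, was 0.95 as a share of RDN37 hits and reversed to 1.43 as a share of RDN37 hits outside the 25S run and to 1.04 as a share of RDN18-2 hits; it ranged from 0.232 to 0.433 with 1 Get4-HTP library left out. These scalings differ only in the denominator, and the 25S run was located in the Get4-HTP libraries. Bins at least 2 times wild type in both libraries numbered 2 with 25 nucleotides per bin, 0 with 100 nucleotides, 0 per 1000000 mapped reads and 0 as a share of RDN37 hits, and 1 to 4 with 1 library left out. Bins at most 0.5 times wild type numbered 1 with 100 nucleotides, 13 per 1000000 mapped reads, and 2 to 5 with 1 library left out. Leaving the peak from 299 to 356 out of the sum, chosen after seeing the data, gave 1 and 2. Runs above 50% of the maximum numbered 1 in wild type against 4 (Get4-HTP 1) and 1 (Get4-HTP 2), and runs above 10% numbered 11 in Get4-HTP 2. T with intervals above and below wild type numbered 3 and 6 at a minimum of 50 hits, against 0 and 0, and 0 to 4 and 0 to 1 with 1 library left out; at 200 hits 7 T remained to be compared. The correlation of wild type and Get4-HTP 2 was 0.34 with linear shares and 0.75 with bins of 100 nucleotides, and that of the Get4-HTP libraries was 0.66 with linear shares. Median hits per nucleotide were 46 (wild type), 136 and 89.5. Wild type had the fewest substitutions in bin 701 to 750 (40), and Get4-HTP 2 in bins 1 to 50 (107) and 1101 to 1144 (47), which limits their ratios.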
